A study of Mus musculus with 186 samples.

Results

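The 8 genes described here encode the precursors of neuropeptides made by striatal projection neurons and by interneurons of the forebrain: Penk, Pdyn, Tac1, Npy, Sst, Cort, Cartpt and Nts. They were taken by name from the 28338 gene symbols of the deposited table, and all 8 were found. Levels were measured by bulk RNA sequencing of mouse brain, in striatum, thalamus, hippocampus, substantia nigra and, of the cortex, its prefrontal and somatosensory parts. The mice were 4 weeks old for 96 libraries and 12 weeks old for 90. WT mice carry both copies of Akap11, heterozygous mice (HET) are Akap11 +/- and homozygous mutants (KO) are Akap11 -/-. Splitting the libraries by the 6 regions, 2 ages and 3 genotypes gives 36 groups, 30 of 5 libraries and 6 of 6. The labels give no strain, no sex and no treatment, and they do not describe how the Akap11 allele was made. At 4 weeks the library numbers recur across regions, which may mark shared animals. Nothing in the labels says that the libraries of a group come from separate animals, so the p-values measure the spread between these libraries.

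Neuropeptides are cut from longer precursor proteins inside dense-core granules and released to act on G protein-coupled receptors. In the striatum, projection neurons of the indirect pathway are known for Penk, the source of enkephalins, while those of the direct pathway are known for Pdyn, the source of dynorphins, and for Tac1, the source of substance P and neurokinin A. Sst, Npy and Cort mark sets of GABAergic interneurons, and Cartpt and Nts are made by scattered neurons of many regions. Akap11 encodes an anchoring protein for protein kinase A (PKA), and PKA can phosphorylate the transcription factor CREB, which binds the cyclic AMP response element TGACGTCA. Somatostatin is the textbook gene of that element.

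Because of that element, the 250 bases before the RefSeq start of each member were searched on both strands for TGACGTCA and for the shorter TGACG or CGTCA, which every full element contains. RefSeq windows (GRCm38.p6) were at hand for 7 of the 8 members, Penk being the one without. These starts can differ from the GENCODE gene bounds given further on, so the Sst, Cartpt and first Tac1 stretches shown lie inside those bounds and the second Tac1 stretch overlaps one. The full element was in 2 of these 7, Sst and Cartpt, against 1.55% of 32851 windows of all genes. The short form was in 5 of 7, Tac1, Sst, Cort, Cartpt and Nts, against 17.8% of all windows. A match describes the letters in the window and is no evidence of binding. The matches are shown here as 30 bases each, 5′ to 3′ on the gene's strand, with the matching letters in capitals, since these letters are what the members share or lack.
Sst, chr16:23890874-23890903, minus strand, 48 bases before the start: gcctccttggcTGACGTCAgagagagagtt
Cartpt, chr13:99900777-99900806, minus strand, 112 bases before the start: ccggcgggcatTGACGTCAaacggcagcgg
Tac1, chr6:7555006-7555035, plus strand, 43 bases before the start: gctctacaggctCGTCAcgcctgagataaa
Tac1, chr6:7554852-7554881, plus strand, 197 bases before the start: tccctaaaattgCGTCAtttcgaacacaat
Cort, chr4:149126764-149126793, minus strand, 18 bases before the start: ctccggcttgtgCGTCAccgcgtgagtgtg
Nts, chr10:102490567-102490596, minus strand, 166 bases before the start: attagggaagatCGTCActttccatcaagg

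Neither form was in the Npy window or in either of 2 Pdyn windows, since RefSeq gives Pdyn a second start, with a window at chr2:129698659-129698908. The Pdyn window at chr2:129699939-129700188 (minus strand) is the one outside the GENCODE bounds of the gene and is given whole, because Pdyn is the member that rose in KO striatum at both ages; no match says only that these letters are not in these bases.
Pdyn: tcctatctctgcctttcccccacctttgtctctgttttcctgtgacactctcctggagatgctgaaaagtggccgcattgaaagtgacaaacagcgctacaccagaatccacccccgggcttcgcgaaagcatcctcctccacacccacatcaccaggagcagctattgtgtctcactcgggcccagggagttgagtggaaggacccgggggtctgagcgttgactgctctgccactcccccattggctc

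Facts of the whole series that touch the members are few. The total of expected counts per library ran from 20794652 to 73344445. The members differ in depth: the median library held 4747 counts of Sst, 1926 of Npy, 1637 of Penk, 1140 of Pdyn and 318 of Tac1, but only 79.1 of Cort, 64.6 of Cartpt and 18 of Nts, and Nts was at 0 in 18 libraries. Akap11 itself was lower in KO than in WT in 12 of 12 region and age comparisons, with log2 fold changes of -4.30 to -3.65 and edgeR adjusted p of at most 1.95e-05. One substantia nigra library, labelled WT 92 at 4 weeks, had low Akap11 and is called here the library labelled WT 92. Marker scores, the mean log2(CPM + 1) of a list of marker genes, set apart 11 libraries, all at 4 weeks: 4 striatal libraries with a cortical and hippocampal excitatory neuron score of 4 or more, 4 from substantia nigra and 3 from thalamus. The striatal calls, age calls and between-region calls of the members that they change are given with and without them. In striatum at 4 weeks the fits without them hold only KO 12 and KO 932 in the KO group. The KO and HET results of thalamus and substantia nigra at 4 weeks are not given without them. All these tissues are mixtures, and fewer cells of a type cannot be told apart from less RNA per cell.

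Across WT regions 3 members peaked in striatum, 4 in cortex and 1 in substantia nigra. Levels are given as CPM, counts per 1000000 counts of the library, scaled by TMM over all libraries of an age. They show where each member is made and are a description, since the members were chosen for striatal and interneuron expression. Of the 40 pairs of neighbours in the order of regional means at each age, 11 at 4 weeks and 12 at 12 weeks had WT ranges that did not overlap; the other neighbours were not set apart from each other. Without the libraries that stand apart, 19 pairs at 4 weeks did not overlap. The share of such pairs over all genes was not taken, so these counts describe the members only. The levels that this moved by over 1.5 times were those of thalamus at 4 weeks for every member but Sst, such as Penk from 17.0 to 1.09 CPM, and that of Cort in striatum.

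**Figure D1:**
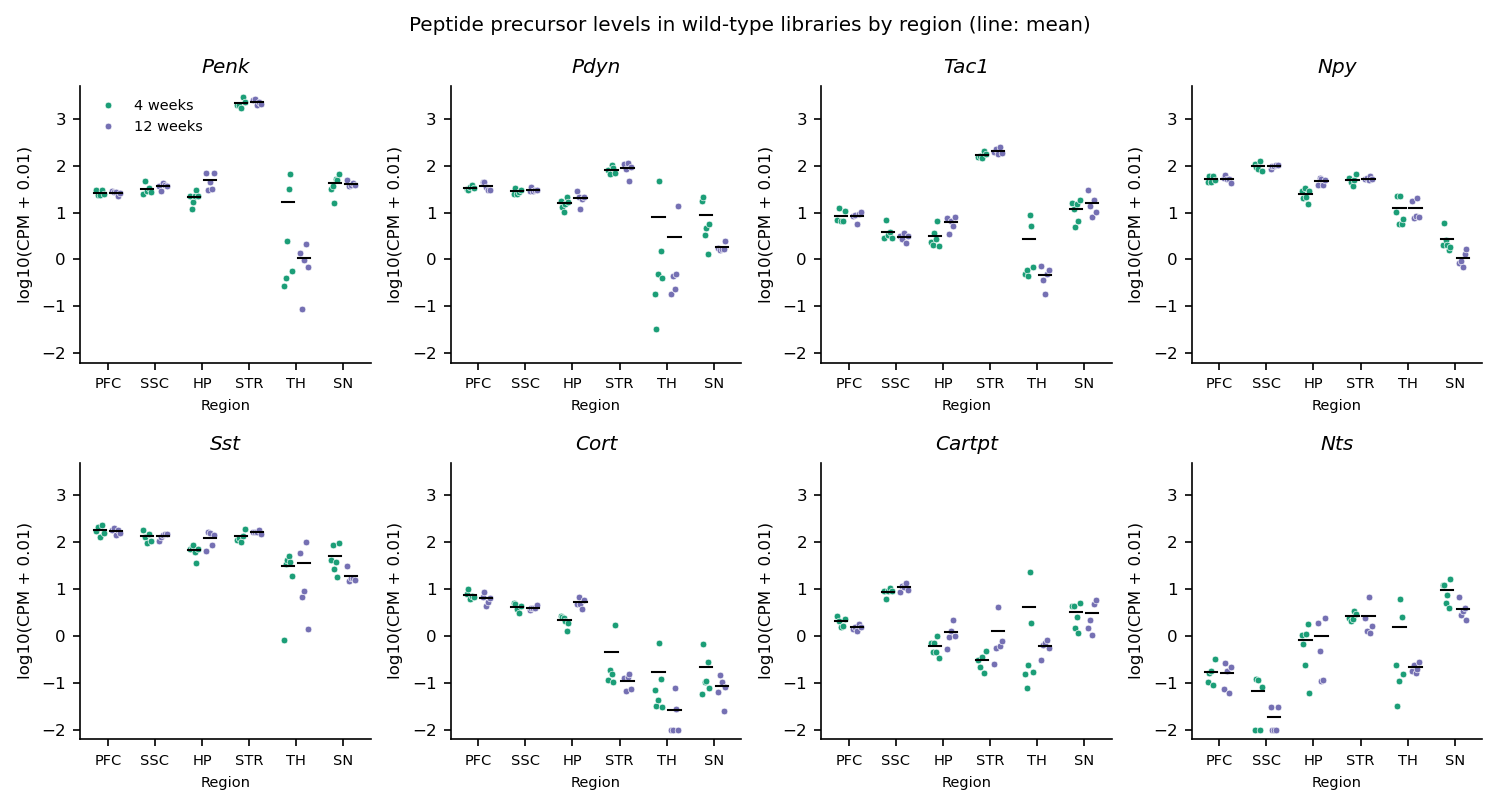
Level of each member in WT libraries, as log10 of (CPM + 0.01), in 6 regions at 4 weeks (green) and 12 weeks (purple). Points are libraries and lines are means; Penk, Tac1 and Pdyn peak in striatum, Npy in somatosensory cortex, Sst and Cort in prefrontal cortex, Cartpt in somatosensory cortex and Nts in substantia nigra.

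Penk (chr4:4133531-4138819, minus strand, GRCm38) was the most striatal member. WT striatum held 2140.5 ± 457 CPM at 4 weeks and 2299.6 ± 267 CPM at 12 weeks (SD, n = 5 each), which was 50.3 and 46.7 times the next region, substantia nigra and hippocampus respectively. Everywhere else its WT means were at most 49.2 CPM. The lowest Penk mean was in thalamus at 12 weeks, 1.04 ± 0.773 CPM (SD, n = 5). The gene overlaps the noncoding gene A830012C17Rik on the opposite strand, and whether the counting used strand is not given, so its counts could include reads of that gene.

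Tac1 (chr6:7554879-7565834, plus strand) followed the same pattern at a lower level. WT striatum held 168 ± 23.2 CPM at 4 weeks and 209 ± 30.9 CPM at 12 weeks, 14.0 and 13.1 times substantia nigra, the next region at both ages. In substantia nigra, to which direct-pathway axons project, Tac1 stood at 12.0 ± 5.30 and 16.0 ± 8.60 CPM. Pdyn (chr2:129686565-129699844, minus strand) was less confined. Its WT striatal means of 82.5 ± 16.4 and 89.7 ± 26.8 CPM were only 2.43 and 2.42 times those of prefrontal cortex, 33.9 ± 3.04 and 37.0 ± 7.24 CPM, and the ranges of those 2 regions did not overlap at either age.

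The interneuron peptides were cortical first. Sst (chr16:23889573-23890958, minus strand) had its highest WT mean in prefrontal cortex, 181 ± 40.3 CPM at 4 weeks and 173 ± 21.0 CPM at 12 weeks, with striatum at 133 ± 34.5 and 164 ± 10.7 CPM, and these regions overlapped. Npy (chr6:49822710-49829507, plus strand) was highest in somatosensory cortex, 98.7 ± 19.7 and 97.5 ± 7.92 CPM, above its striatal level of 50.2 ± 10.5 and 53.1 ± 3.82 CPM. In substantia nigra Npy was scarce, at 2.69 ± 1.68 and 1.08 ± 0.394 CPM. Cort (chr4:149125034-149126763, minus strand), which encodes cortistatin, a relative of somatostatin, was nearly confined to cortex and hippocampus. Prefrontal cortex held 7.54 ± 1.52 and 6.34 ± 1.65 CPM of Cort, and striatum 0.449 ± 0.711 and 0.101 ± 0.0370 CPM. Without WT 92, which held 1.72 CPM, the 4-week striatal mean of Cort was 0.131 ± 0.0410 CPM (SD, n = 4).

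Cartpt and Nts were low in WT striatum. Cartpt (chr13:99898489-99901091, minus strand), the source of CART peptides, was highest in somatosensory cortex at 8.85 ± 1.68 and 10.8 ± 1.99 CPM and stood at 0.294 ± 0.122 and 1.26 ± 1.61 CPM in striatum. Nts (chr10:102481756-102490486, minus strand), the source of neurotensin, was highest in substantia nigra at 9.57 ± 4.88 and 3.82 ± 1.79 CPM, followed by striatum at 2.60 ± 0.534 and 2.68 ± 2.39 CPM. Set against each other per kilobase of the longest transcript in WT striatum at 4 weeks, the levels were 1477 CPM per kb for Penk, 184 for Sst, 88.7 for Npy, 85.1 for Tac1, 34.6 for Pdyn, 2.08 for Nts, 0.663 for Cort and 0.238 for Cartpt. Without WT 92 Cort stood at 0.194 CPM per kb and Cartpt at 0.203, so their order turned. Penk was the highest of the 8, and Npy and Tac1 were side by side.

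In KO striatum most members stood above WT, and few of those differences passed the test. At 4 weeks 2 of 8 tested members, Pdyn and Cartpt, rose in KO against WT, against 1.59% of all 15425 genes tested that were called higher and 3.35% called in either direction. The libraries of the 2 groups did not overlap for the same 2 members, against 1.72% of all genes not overlapping upward. At 12 weeks 3 of 7 tested members, Pdyn, Tac1 and Sst, rose, against 1.82% of 15622 genes called higher and 4.42% called in either direction. Pdyn alone did not overlap, against 2.41% of genes. The log2 fold change was above 0 for 7 of 8 members at 4 weeks and 7 of 7 at 12 weeks, with medians of 0.43 at both ages, where the median of all genes was -0.0015 and 0.0053. Cort was too low to be tested at 12 weeks.

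**Figure D2:**
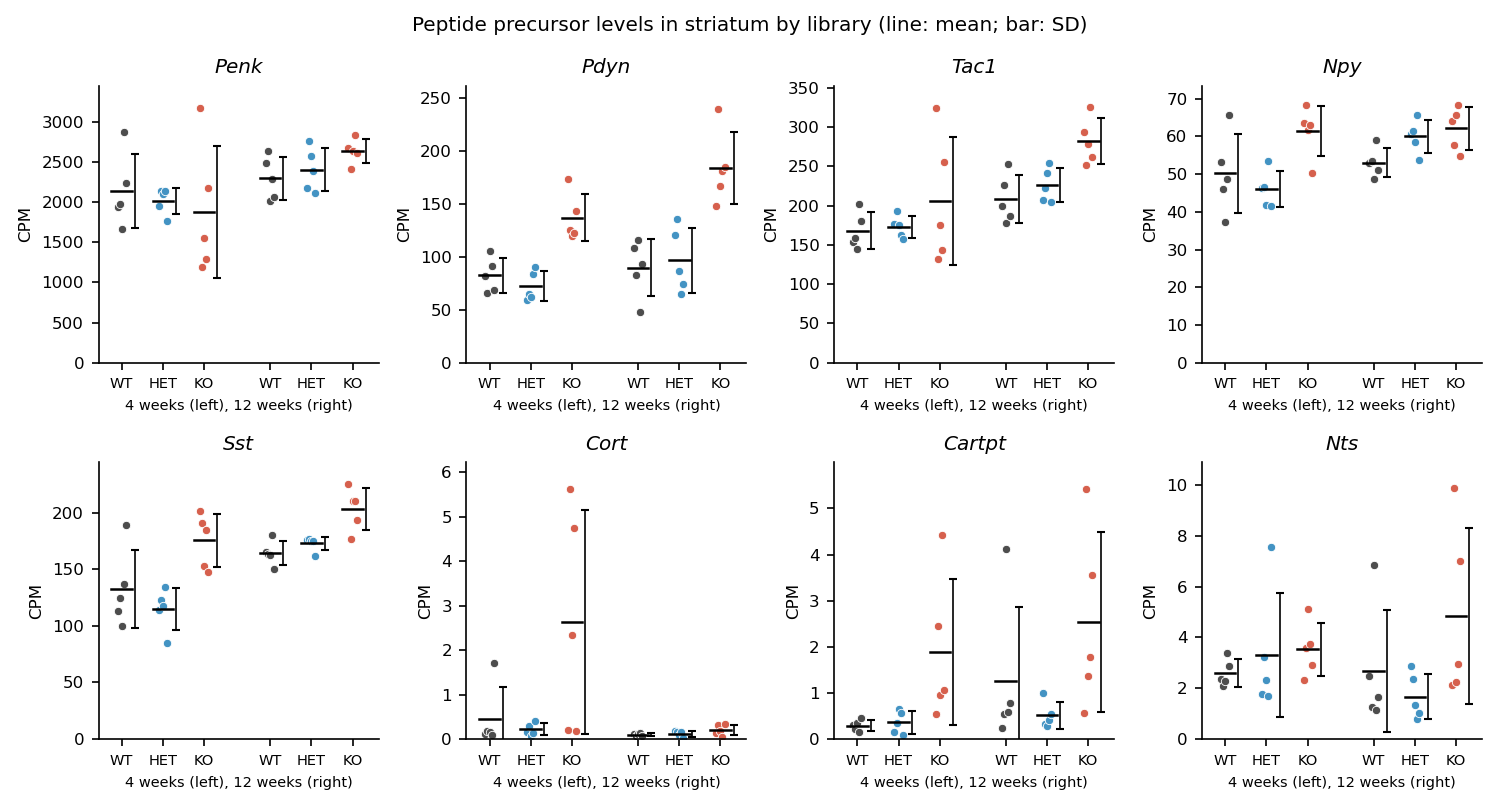
Level of each member in striatum, in CPM, for WT, HET and KO libraries at 4 weeks (left) and 12 weeks (right). Points are libraries, lines are means and bars are SD; the 5 KO libraries lie above all WT libraries for Pdyn at both ages and for Cartpt at 4 weeks.

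Pdyn, the dynorphin precursor, rose at both ages. At 4 weeks its striatal levels were 65.9, 68.3, 81.7, 91.3 and 105 CPM in WT, 59.2, 61.9, 65.2, 84.1 and 90.5 in HET, and 119.6, 122, 126, 143 and 173 in KO. At 12 weeks they were 47.6, 83.0, 93.6, 108 and 116 CPM in WT, 64.7, 74.0, 86.9, 121 and 136 in HET, and 148, 167, 181, 184 and 239 in KO. All 5 KO libraries lay above all 10 others at each age, while HET and WT were intermixed. KO exceeded WT by 0.73 ± 0.16 on the log2 scale (SE, edgeR adjusted p = 0.0177) at 4 weeks and by 1.03 ± 0.23 (adjusted p = 0.0157) at 12 weeks. Leaving out 1 library at a time ended the call once: without WT 42 at 4 weeks the difference was 0.66 with adjusted p = 0.0509. Without the 4 striatal libraries that stand apart it was 0.87 (adjusted p = 0.0302), with KO 12 and KO 932 as the only KO libraries.

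Tac1, made by the same direct-pathway cells, rose at 12 weeks. It stood at 178, 187, 199.8, 226 and 253 CPM in WT, 205, 207, 223, 242 and 254 in HET, and 252, 262, 279, 294 and 326 in KO at 12 weeks. The lowest KO library was just under the highest WT library. The difference of 0.43 ± 0.09 (adjusted p = 0.0129) was called in 10 of 10 fits with 1 library left out. At 4 weeks WT held 145, 154, 159, 181 and 202 CPM and KO 133, 143, 175, 256 and 324, a difference of 0.30 ± 0.20 (adjusted p = 0.466). The 3 lowest KO libraries there, KO 161, KO 51 and KO 163, are those with the highest cortical scores. Without them and WT 92 the difference was 0.81 with adjusted p = 0.00709. That fit rests on KO 932 and KO 12 alone, at 256 and 324 CPM. The 4-week difference was called in 0 of 10 fits with 1 library left out, and this was the 1 of 7 other settings that called it.

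Penk, the enkephalin precursor of the indirect pathway, did not pass the test at either age. At 4 weeks WT held 1673, 1939, 1974, 2242 and 2874 CPM and KO 1192, 1294, 1558, 2173 and 3182, so the KO libraries spanned the whole WT range and more. The log2 difference was -0.18 ± 0.23 (adjusted p = 0.750), and it became 0.34 (adjusted p = 0.464) without the 4 libraries that stand apart. At 12 weeks WT held 2019, 2066, 2286, 2489 and 2638 CPM and KO 2421, 2614, 2640.0, 2684 and 2839, a difference of 0.20 ± 0.08 (adjusted p = 0.241). As measured, then, the precursors of the direct pathway passed the test at 12 weeks and the one of the indirect pathway did not; the difference between them was not tested.

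Sst, the somatostatin precursor, rose at 12 weeks by a small and even amount. Its levels were 151, 162, 163, 165 and 180.5 CPM in WT, 162, 175, 175, 175 and 176 in HET, and 177, 194, 210.3, 210.4 and 226 in KO. Only the lowest KO library lay within the WT range. The difference was 0.30 ± 0.06 (adjusted p = 0.00884), called in 10 of 10 fits with 1 library left out. At 4 weeks WT held 99.6, 113, 124, 137 and 189 CPM and KO 148, 153, 185, 191 and 201, a difference of 0.41 ± 0.15 (adjusted p = 0.164). The WT library at 189 CPM is WT 92 of striatum, and without it the 4-week difference was 0.57 with adjusted p = 0.0246. That fit keeps KO 161, KO 51 and KO 163, whose cortical scores were higher than that of WT 92. A group of 16 libraries at 4 weeks has counts that are almost never whole numbers. With this library subset as a covariate the difference was 0.52 (adjusted p = 0.0375). The 4-week difference was called in 1 of 10 fits with 1 library left out and in 1 of 7 other settings.

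Npy, which striatal Sst interneurons also make, did not pass the test at either age. At 12 weeks WT held 48.6, 51.2, 53.1, 53.5 and 59.0 CPM and KO 54.8, 57.7, 64.1, 65.7 and 68.3, with HET at 53.8 to 65.7. KO differed from WT by 0.22 ± 0.07 (adjusted p = 0.0854), and by an adjusted p of 0.0469 when KO 5 was left out. At 4 weeks WT held 37.2, 45.9, 48.8, 53.4 and 65.6 CPM and KO 50.4, 61.8, 63.0, 63.7 and 68.3. The WT library at 65.6 CPM is again WT 92. The difference was 0.30 ± 0.12 (adjusted p = 0.187), and 0.41 (adjusted p = 0.0333) without WT 92. That last fit keeps KO 161, KO 51 and KO 163, whose cortical scores were higher than that of WT 92. The 4-week difference of Npy was called in 1 of 10 fits with 1 library left out and in 0 of 7 other settings. Those 7 include the fit without the libraries that stand apart and the fit with the cortical score as covariate.

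Cartpt rose in KO striatum at 4 weeks from a very low level. WT held 0.153, 0.211, 0.295, 0.346 and 0.467 CPM, HET 0.0947, 0.158, 0.348, 0.558 and 0.645, and KO 0.548, 0.948, 1.06, 2.46 and 4.43. All KO libraries lay above all WT libraries, but HET reached into the KO range. The difference was 2.65 ± 0.58 (adjusted p = 0.0189). It missed the threshold when any of 4 libraries was left out: 2.06 (adjusted p = 0.0520) without KO 51, 2.64 (0.0541) without WT 142, 2.56 (0.0539) without WT 42 and 2.50 (0.0584) without WT 914. At 12 weeks WT held 0.239, 0.553, 0.592, 0.780 and 4.12 CPM and KO 0.575, 1.37, 1.79, 3.55 and 5.42, a difference of 1.01 ± 0.68 (adjusted p = 0.526). One WT library, WT 3, held 4.12 CPM, and without it the difference was 2.24 with adjusted p = 0.0331.

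Cort and Nts did not pass the test in striatum. Cort at 4 weeks stood at 0.0919, 0.103, 0.148, 0.181 and 1.72 CPM in WT and 0.190, 0.205, 2.34, 4.75 and 5.63 in KO, a difference of 2.52 ± 0.92 (adjusted p = 0.150). Of the 15 striatal libraries, KO 161, KO 51, KO 163 and WT 92 held 1.72 CPM or more and the others at most 0.411. Without WT 92 alone, a fit that keeps KO 161, KO 51 and KO 163, the difference was 4.32 (adjusted p = 0.0185). At 12 weeks no striatal library of any genotype exceeded 0.342 CPM of Cort. Nts at 4 weeks stood at 2.08, 2.27, 2.38, 2.86 and 3.40 CPM in WT and 2.33, 2.93, 3.58, 3.75 and 5.11 in KO (0.45 ± 0.36, adjusted p = 0.560). At 12 weeks Nts was 1.16, 1.25, 1.66, 2.46 and 6.85 CPM in WT and 2.11, 2.25, 2.94, 7.01 and 9.88 in KO (0.85 ± 0.55, adjusted p = 0.503). The WT library highest in Nts is WT 3, as for Cartpt.

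The striatal libraries at 4 weeks differed in their content of cortical markers, and some members moved with it. The list of 8 genes includes Slc17a7, a vesicular glutamate transporter, and the transcription factors Neurod2, Neurod6, Tbr1 and Fezf2. Its score was 5.82 in KO 161, 5.36 in KO 51, 4.81 in KO 163 and 4.67 in WT 92, and at most 2.96 in the other 11 libraries. The summed level of the list ran from 19.7 to 800 CPM in WT, 18.4 to 129 in HET and 17.3 to 1499 in KO at 4 weeks, while at 12 weeks no striatal score exceeded 1.30. In KO against WT 0 of the 8 markers passed the test at 4 weeks, with a median log2 fold change of 2.16. The 4 libraries highest in this score were also the 4 highest in Cort.

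**Figure D3:**
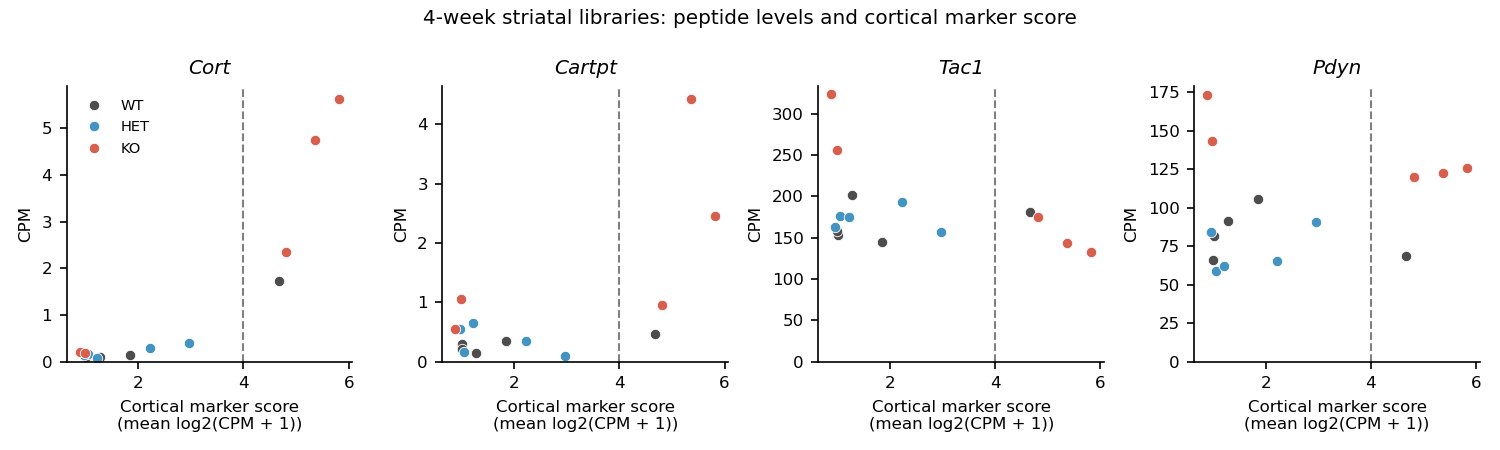
Levels in CPM of Cort, Cartpt, Tac1 and Pdyn against the cortical and hippocampal excitatory neuron score (mean log2(CPM + 1) of 8 markers) in the 15 striatal libraries at 4 weeks; colours are genotypes and the dashed line is a score of 4. Cort is above 1 CPM only to the right of the line, whereas the 5 KO libraries are above the WT libraries for Pdyn on both sides of it.

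With those 4 libraries left out, 2 members were called in KO against WT at 4 weeks, Pdyn and Tac1, with the values given above. The KO group of that fit was KO 12 and KO 932 only. Cartpt was then 1.64 (adjusted p = 0.171), Cort 0.60 (0.660) and Sst 0.56 (0.0966). With all libraries kept and the score as a covariate, Pdyn was 0.81 (adjusted p = 0.00773) and Cartpt 2.01 (0.0553), and 1 member was called. The pan striatal projection neuron score was 9.39 to 10.9 in KO and 10.2 to 10.9 in WT at 4 weeks, and 9.96 to 10.3 against 10.1 to 10.5 at 12 weeks. The part of tissue content in the 4-week values of Tac1, Penk and Cartpt was not tested beyond these fits.

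HET striatum was not set apart from WT for any member. At 4 weeks 0 of 8 members passed the edgeR test in HET against WT, where 0.00648% of all genes were called, and 0 had an unadjusted p under 0.05. At 12 weeks 0 of 7 passed, against 0.0064% of genes, and 1, Npy at 0.18 ± 0.07 (adjusted p = 1.00), had an unadjusted p under 0.05. Tested directly, KO exceeded HET at 4 weeks for 3 of 8 members, against 1.89% of genes called higher. Pdyn exceeded HET by 0.92 ± 0.16 (adjusted p = 0.00384), Sst by 0.62 ± 0.16 (0.0394) and Cartpt by 2.36 ± 0.56 (0.0317). At 12 weeks 2 of 7 members did, against 1.86% of genes: Pdyn by 0.92 ± 0.23 (adjusted p = 0.0299) and Sst by 0.23 ± 0.06 (0.0446).

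The comparisons of KO with HET and with WT share the KO libraries. Among fits with 1 library left out, the KO against HET difference of Pdyn was called in 10 of 10 at 4 weeks and in 4 of 10 at 12 weeks, where its adjusted p reached 0.0873. That of Sst was called in 3 of 10 at 4 weeks (adjusted p up to 0.0984) and 1 of 10 at 12 weeks (up to 0.126), and that of Cartpt in 4 of 10 (up to 0.0926). The Pdyn call at 12 weeks was lost without HET 3, HET 4, HET 5, KO 2, KO 4 or KO 5, and that of Sst was kept without KO 2 only. At 4 weeks Sst was lost without any of the 5 HET libraries, KO 161 or KO 51, and Cartpt without HET 11, HET 162, HET 93, HET 931, KO 161 or KO 51. Without the striatal libraries that stand apart, Pdyn at 4 weeks was 1.13 (adjusted p = 0.00658), Sst 0.60 (0.0734) and Cartpt 1.13 (0.329). With the cortical score as a covariate they were 1.01 (0.00194), 0.53 (0.121) and 1.503 (0.224). Cartpt was also not called when only KO and HET were fitted (2.35, adjusted p = 0.0667). Pdyn at 4 weeks was therefore the difference from HET that held whichever library was dropped.

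Outside striatum no member passed the test in KO against WT. At 4 weeks 0 of 36 tested pairs of member and region were called, against 0.0187% of all genes tested in those 5 regions, and 13 had an unadjusted p under 0.05. At 12 weeks 0 of 37 were called, against 0.0173%, and 11 had an unadjusted p under 0.05. In HET the counts called were 0 of 36 against 0.00374% at 4 weeks and 0 of 37 against 0.00619% at 12 weeks. An unadjusted p under 0.05 was found for 13 and 3 pairs in HET. These percentages are of adjusted calls only. The share of all genes with an unadjusted p under 0.05 was not taken, here or elsewhere, so those counts are not set against it. DESeq2 called 2 pairs in KO at 4 weeks, both in thalamus: Penk at -4.13 (adjusted p = 0.0420) and Sst at -4.71 (adjusted p = 1.2e-05). Leaving out 1 library also gave edgeR calls in 2 cases. Without WT 142 at 4 weeks Sst in thalamus was -5.00 in KO (adjusted p = 0.00430) and -4.02 in HET (adjusted p = 0.0115), and without WT 914 Tac1 in hippocampus was 1.49 in KO (adjusted p = 0.0485).

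**Figure D4:**
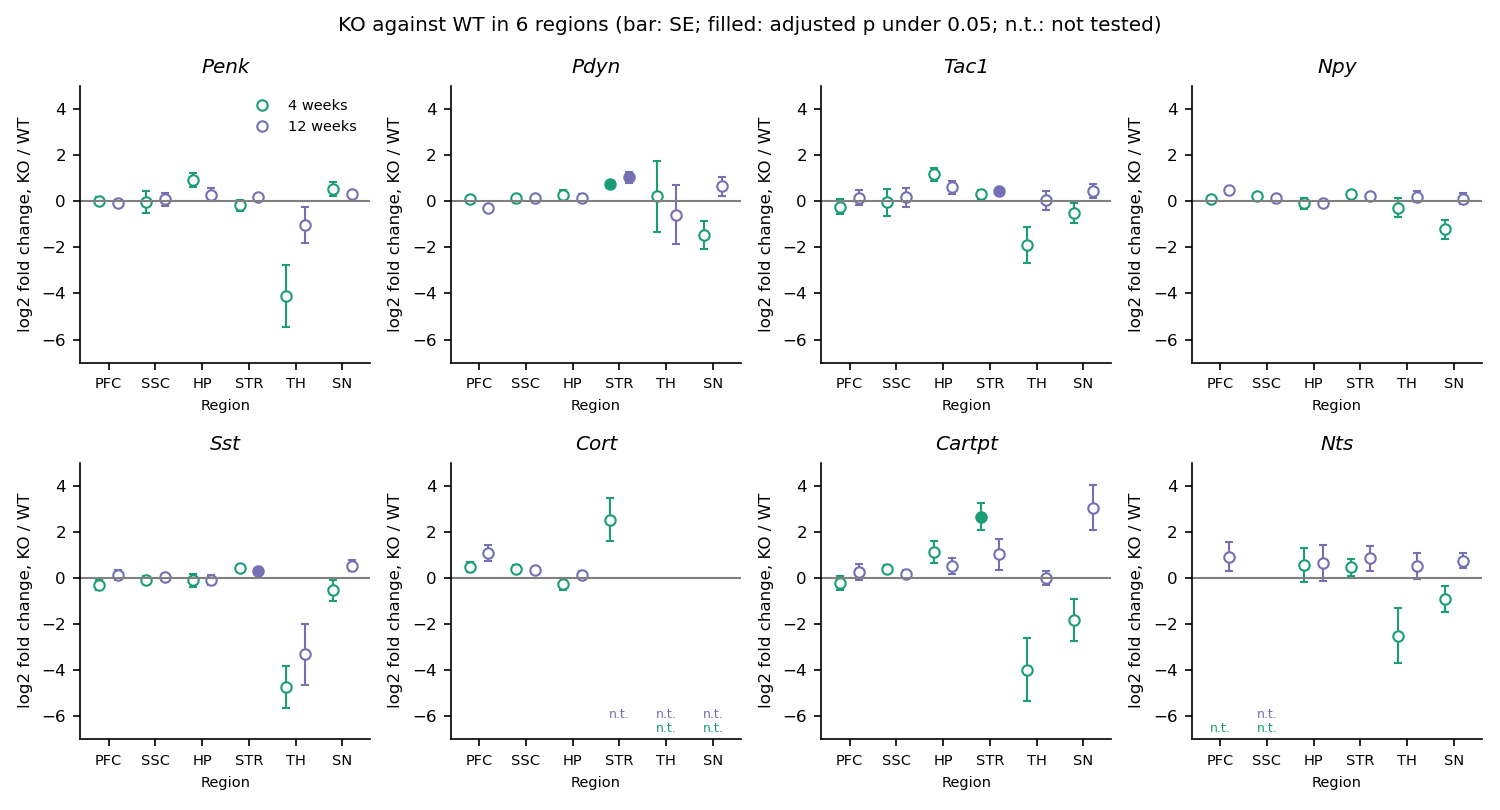
Log2 fold change of KO against WT with its SE for each member in 6 regions at 4 and 12 weeks; filled points have an edgeR adjusted p under 0.05 and n.t. marks members too low to test. Filled points are found in striatum only: Pdyn and Cartpt at 4 weeks, Pdyn, Tac1 and Sst at 12 weeks.

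The striatal effect was compared with the mean of the other 5 regions in 1 fit per age. At 4 weeks 3 of 8 members differed, against 2.82% of genes called higher: Sst by 1.58 ± 0.48 (adjusted p = 0.0465), Cort by 2.85 ± 0.66 (0.00504) and Cartpt by 3.55 ± 0.92 (0.0147). Pdyn was not among them. The KO effect of Sst in the other regions was -4.75 in thalamus, -0.55 in substantia nigra, -0.31 in prefrontal cortex, -0.11 in hippocampus and -0.09 in somatosensory cortex, against 0.41 in striatum. With the library number as a block across regions (limma-voom), Cort was 2.68 (adjusted p = 0.0378), Sst 1.505 (0.132) and Cartpt 2.71 (0.204), so 1 member was called. At 12 weeks 0 of 8 members differed by the edgeR test, against 3.11% of genes in either direction. Only Pdyn had an unadjusted p under 0.05 there, with 1.00 ± 0.49 (adjusted p = 0.370). No member can therefore be called particular to striatum at 12 weeks, although those that passed the test were found in striatum.

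The 4-week differences between regions rest in part on single libraries. Sst was called in 2 of 10 fits with 1 striatal library left out (without KO 932 or WT 92; adjusted p up to 0.120 without KO 161). Cort was lost without KO 161 (2.37, adjusted p = 0.0597), and Cartpt without KO 161, KO 51 or WT 914, with adjusted p up to 0.0928. Without the 11 libraries that stand apart, none of the 3 was called: Sst was 1.66 (adjusted p = 0.113), Cort 0.56 (0.803) and Cartpt 1.74 (0.371).

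In cortex no difference passed the test. Cort in somatosensory cortex at 4 weeks was 3.01, 3.79, 4.44, 4.74 and 5.07 CPM in WT and 5.21, 5.39, 5.42, 5.72 and 6.07 in KO. These groups did not overlap, yet the difference of 0.40 ± 0.13 had an adjusted p of 0.712. Outside striatum KO lay wholly above WT for this 1 of 36 tested pairs at 4 weeks and for 1 of 37 at 12 weeks. The latter was Npy in somatosensory cortex, at 84.4 to 104.0 CPM in WT and 104.5 to 114 in KO. The share of all genes without overlap in these regions is not given, so these counts are not set against it. In prefrontal cortex at 12 weeks Cort was 4.40, 5.30, 6.47, 6.75 and 8.76 CPM in WT and 7.78, 9.64, 10.6, 17.7 and 21.5 in KO (1.08 ± 0.33, adjusted p = 0.869). Npy differed there by 0.47 ± 0.15 (adjusted p = 0.869). Pdyn went the other way in the same region, from 30.1 to 45.3 CPM in WT to 28.7 to 31.8 in KO (-0.28 ± 0.10, adjusted p = 0.928).

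In hippocampus at 4 weeks the striatal peptides stood higher in KO without passing the test. Tac1 was 1.91 to 6.46 CPM in 6 WT libraries, with a median of 2.53, and 5.54, 5.93, 7.11, 7.63 and 9.38 in KO (1.17 ± 0.28, adjusted p = 0.725). Penk was 12.0 to 29.8 CPM in WT and 14.4 to 62.8 in KO (0.94 ± 0.30, adjusted p = 0.725). The pan striatal score was 5.44 to 6.45 in the KO libraries and 5.37 to 5.77 in WT, and its part in these values was not tested. A few somatosensory HET libraries showed the same combination. HET 162 and HET 93 at 4 weeks held 119 and 199 CPM of Penk and 14.6 and 25.0 of Tac1, with pan striatal scores of 7.03 and 7.79, and HET 5 at 12 weeks held 119 and 14.8 CPM with a score of 6.97, where no other library of that region exceeded 6.26.

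Thalamus at 4 weeks carried its differences on WT libraries. Sst was 0.793, 18.6, 34.1, 37.0, 42.7 and 50.0 CPM in the 6 WT libraries and 0.693 to 1.52 in KO, so that 5 of 6 WT libraries were above all KO libraries. The difference of -4.75 ± 0.92 had an adjusted p of 0.0721. Genes of GABA synthesis moved with it. Gad1 was 180 to 667 CPM and Gad2 92.6 to 465 in those 5 WT libraries, 10.4 and 4.82 in WT 142, the one low in Sst, and 7.73 to 21.3 and 3.94 to 14.4 in KO. Their part in the Sst values was not tested. WT 913 and WT 914 held 32.2 and 66.2 CPM of Penk where the other WT libraries had at most 2.45, and 9.05 and 5.24 CPM of Tac1. WT 913 also held 22.8 CPM of Cartpt, 6.21 of Nts and 46.1 of Pdyn, with a hypothalamic neuron score of 4.95 and a cortical score of 5.17. Both libraries are among those set apart by marker scores. Sst in thalamus was also lower by mean in KO at 12 weeks, without a call. WT then held 1.37, 6.88, 8.92, 58.4 and 103 CPM and KO 0.445 to 12.2, with 3 KO libraries below all WT libraries.

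Cartpt in substantia nigra was present at a high level in HET 62 at 4 weeks and in a few HET and KO libraries at 12 weeks. At 12 weeks WT held 1.06, 1.43, 2.13, 4.82 and 5.82 CPM, HET 1.58, 4.04, 9.32, 30.8 and 35.7, and KO 1.87, 3.42, 3.66, 32.5 and 82.8. KO and WT differed by 3.05 ± 0.99 (adjusted p = 0.649). Ucn, the urocortin precursor, followed the same libraries, at 4.98 CPM in KO 3, 2.50 in HET 2, 1.95 in KO 1, 1.58 in HET 4 and 0.62 in HET 3, and at most 0.158 in the other libraries of that age. At 4 weeks HET 62 held 41.5 CPM of Cartpt and 2.20 of Ucn. KO went the other way at that age, with 0.344 to 1.36 CPM of Cartpt against 1.13 to 5.09 in WT. There 4 KO libraries lay below all WT libraries. Urocortin and CART are textbook products of the Edinger-Westphal nucleus of the midbrain, and the part of tissue content in these values was not tested.

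**Figure D5:**
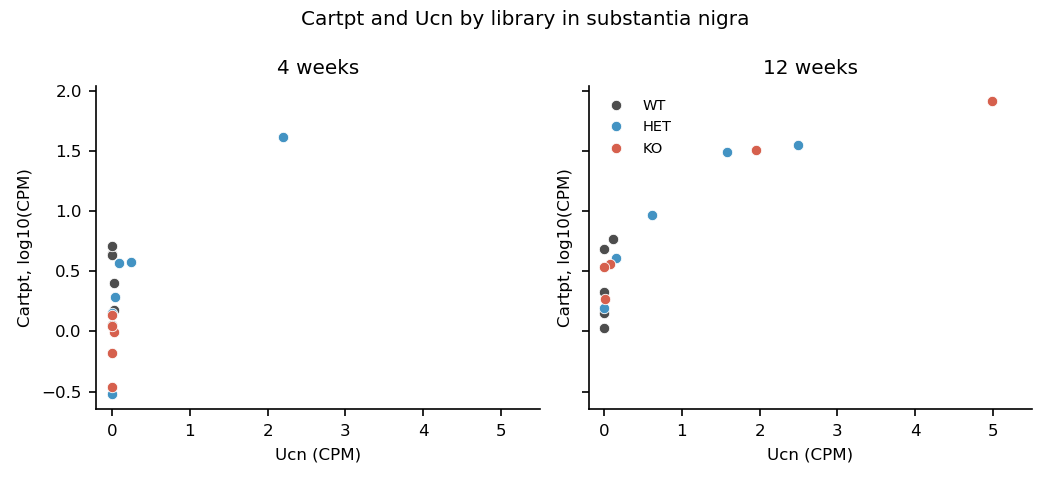
Cartpt (log10 CPM) against Ucn (CPM) in the substantia nigra libraries at 4 and 12 weeks, coloured by genotype. The 6 libraries highest in Cartpt are those with the most Ucn, from 0.62 to 4.98 CPM.

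The library labelled WT 92 of substantia nigra held 563 CPM of Pmch and 128 of Hcrt, precursors of hypothalamic peptides, and KO 91 held 39.6 CPM of Pmch with 16.6 CPM of Nts, where the other KO libraries of that group had at most 2.75 CPM of Nts. Nts in the 6 WT libraries ran from 3.88 to 16.5 CPM, the highest being the library labelled WT 92. Pdyn and Npy were lower in KO than WT there at 4 weeks, by -1.46 ± 0.60 and -1.22 ± 0.41, and neither passed (adjusted p = 0.643 for both).

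Age was compared within WT, where it cannot be told apart from other differences between the 2 sets of animals. Of 46 tested pairs of member and region 14 were called. In hippocampus 5 of the 8 members rose from 4 to 12 weeks, against 7.05% of genes called higher. Cort was 1.29 to 2.66 CPM at 4 weeks (n = 6) and 3.73, 4.73, 4.81, 5.78 and 6.93 at 12 weeks, a rise of 1.21 ± 0.21 (adjusted p = 0.000245) with no overlap. Npy rose by 0.85 ± 0.20 (adjusted p = 0.00347), from 15.3 to 32.7 CPM at 4 weeks to 38.1 to 53.4 CPM. Penk rose by 1.15 ± 0.30 (0.00866), Tac1 by 0.88 ± 0.29 (0.0321) and Sst by 0.79 ± 0.27 (0.0412). Cort, Npy and Penk were called in 21 of 21 fits with 1 library left out, and Tac1 and Sst in 14 of 21.

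In WT substantia nigra 4 members fell from 4 to 12 weeks, against 11.8% of genes called lower. Pdyn ran from 1.27 to 21.3 CPM at 4 weeks (median 5.14) and from 1.61 to 2.42 at 12 weeks, and it fell by 2.38 on the log2 scale (adjusted p = 0.00395). Sst fell by 1.49 (0.00863), Npy by 1.40 (0.00553) and Nts by 1.40 (0.0478). All but Nts were called in 21 of 21 fits with 1 library left out, and Nts in 11 of 21 (adjusted p up to 0.114). Without the libraries that stand apart the 4 falls were -2.70, -1.32, -1.51 and -1.30 in the same order, all called. WT means in that order were 8.90, 51.1, 2.69 and 9.57 CPM at 4 weeks and 1.80, 19.2, 1.08 and 3.82 at 12 weeks. HET means were 2.29, 15.6, 0.890 and 2.94 CPM at 4 weeks and 2.00, 20.9, 0.870 and 3.81 at 12 weeks. KO means were 3.21, 34.9, 1.15 and 5.10 CPM at 4 weeks and 2.82, 27.8, 1.17 and 6.39 at 12 weeks. Age within HET or within KO was not tested.

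Thalamus and striatum gave calls that rest on few libraries. In thalamus 4 members fell, against 12.6% of genes called lower: Penk by 4.08 (adjusted p = 0.0101), Tac1 by 2.66 (0.00414), Cartpt by 2.91 (0.0270) and Nts by 2.99 (0.0263). Without the 3 thalamic WT libraries that stand apart Penk was -0.09 (adjusted p = 0.966), Tac1 -0.28 (0.743), Nts 0.31 (0.862) and Cartpt 1.67 (0.0353), the last 2 with the opposite sign. Without WT 913 alone Cartpt was 0.157 (adjusted p = 0.887) and Nts -1.65 (0.185), and without WT 914 alone Penk was -2.86 (0.0524). In striatum Cartpt rose by 2.00 ± 0.70 (adjusted p = 0.0457), against 9.12% of genes called higher, and by 0.76 (adjusted p = 0.467) without WT 3 at 12 weeks. In prefrontal and somatosensory cortex no member was called between ages by edgeR and none had an unadjusted p under 0.05, although 19.1% and 27.1% of all genes were called there.

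The KO effect itself did not differ between ages by the edgeR test for any member: 0 of 46 pairs of member and region were called, 8 had an unadjusted p under 0.05, and 0% of all genes were called. A difference between the 4-week and 12-week calls in striatum is thus not shown.

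Genes that process or receive these peptides were also tested in striatum, from lists chosen with earlier results of these data known. Of 14 genes of peptide processing and dense-core granules, 1 rose at 4 weeks, with a list median of 0.17. It was Pcsk1, the prohormone convertase, at 1.03 ± 0.20 (adjusted p = 0.00900); at 12 weeks it stood at 0.75 ± 0.22 (adjusted p = 0.0698). At 12 weeks 2 of the 14 fell, with a list median of 0.10: Pcsk2, a second convertase, by 0.36 (adjusted p = 0.00232) and Chga, the granule protein chromogranin A, by 0.49 (adjusted p = 0.000129). The medians of all genes, given above, were near 0. Of all genes tested, 1.59% were called higher at 4 weeks and 1.82% at 12 weeks. In either direction the shares were 3.35% and 4.42%, and the share called lower alone is not given. These shares also stand beside the counts of the lists that follow.

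Of 16 peptide receptors 2 rose at 4 weeks, with a list median of 0.10, and 1 rose and 2 fell at 12 weeks, with a median of -0.12. Sstr4, a somatostatin receptor, rose at both ages, by 0.81 ± 0.18 (adjusted p = 0.0236) and 0.67 ± 0.11 (0.00119). Npy1r, a receptor for neuropeptide Y, rose at 4 weeks by 0.68 ± 0.12 (adjusted p = 0.00515). At 12 weeks Sort1, which binds neurotensin, fell by 0.43 (adjusted p = 0.00109) and Sstr3 fell by 1.32 (0.0386). Oprk1, the dynorphin receptor, was -0.26 ± 0.21 (adjusted p = 0.578) and -0.33 ± 0.17 (0.354). Of 20 other peptide precursors 10 and 11 were high enough to test and none was called, with medians of 1.31 and -0.0037. Cck of this list, a peptide also made by cortical neurons, was 47.2 to 77.2 CPM at 4 weeks in the 4 striatal libraries with high cortical scores and 3.46 to 9.41 in the others, and the part of tissue content in the 4-week median was not tested.

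Few marker genes of the cells that make these peptides were called, and those called in projection neurons were lower. Of all genes 3.35% at 4 weeks and 4.42% at 12 weeks were called in either direction. Of 6 direct-pathway genes 0 were called by edgeR at either age, with medians of -0.20 and -0.0057; Drd1, the dopamine receptor of those cells, was -0.32 ± 0.22 (adjusted p = 0.495) and -0.07 ± 0.07 (0.696). Of 10 pan striatal genes 0 were called at 4 weeks and 4 fell at 12 weeks: Rgs9 by 0.49 (adjusted p = 0.00178), Rarb by 0.37 (0.00442), Pde10a by 0.43 (0.0374) and Bcl11b by 0.33 (0.0385). Of 5 indirect-pathway genes tested, Ptprm fell at both ages, by 0.34 (0.00505) and 0.36 (0.00788). Among 14 interneuron genes 0 were called at 4 weeks, and at 12 weeks Lamp5 rose by 0.31 (adjusted p = 0.0121) and Satb1 fell by 0.53 (0.00336). Gad1, which makes GABA, was 0.07 ± 0.19 (adjusted p = 0.905) and 0.06 ± 0.06 (0.753).

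Activity-regulated early genes, several of which are known CREB targets, were also tested. Of 12, 0 rose and 2 fell at 4 weeks, and 1 fell at 12 weeks. Egr2 fell by 3.53 (adjusted p = 8.54e-05) and by 2.99 (adjusted p = 0.000975), and Egr1 fell by 0.89 (0.0463) at 4 weeks. Of the lists for other cells, Aqp4 of astrocytes fell by 0.58 (adjusted p = 0.0139) and C1qa and C1qb of microglia by 0.35 (0.0433) and 0.30 (0.0298) at 4 weeks, and Dsp of dentate granule cells fell by 1.98 (0.00363) at 12 weeks. By edgeR no gene was called between KO and WT striatum at either age in the lists for cortical and hippocampal excitatory neurons or for cholinergic, thalamic, dopamine, hypothalamic, choroid plexus, oligodendrocyte or endothelial cells.

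The members varied together to different degrees from library to library. Deviations of log2(CPM + 1) from each of the 36 group means were correlated over all libraries, which may share animals and do share scaling, so the values are descriptions. Of 28 pairs of members 26 had a Pearson r above 0, from -0.02 to 0.61. The highest was Penk with Tac1, and Nts with Tac1 followed at 0.44. Pdyn reached 0.26 with Tac1 and 0.32 with Penk, and Sst reached 0.30 with Npy. Libraries of all regions were pooled for these values, and whether Pdyn and Tac1 vary together within striatum was not tested.

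Among 14088 genes with a mean of at least 1 CPM, those whose deviations were most like each member included familiar cell markers. Tac1 varied most with Rgs9 (r = 0.76), Drd1 (0.73) and Rxrg (0.68), all genes of striatal projection neurons, and Sst with Slc32a1 (0.81), Gad1 (0.78) and Gad2 (0.76), which make and load GABA. Cort varied most with Fezf2 (0.83), a gene of deep-layer cortical excitatory neurons, then 3110035E14Rik (0.78) and Arhgap25 (0.76). Penk was closest to Ankrd63 (0.73), Adra2c (0.69) and Gpr83 (0.68), and Pdyn to Dclk3 (0.76), 6330403K07Rik (0.70) and St8sia2 (0.69). The other members had weaker partners: Npy with Ephx4 (0.61), Pip4k2c (0.55) and Fhl2 (0.54), Nts with Magel2 (0.57) and Hap1 (0.55), and Cartpt with Gpx3 (0.51), Adcyap1 (0.49) and Dmrta2 (0.49).

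Over the means of the 12 WT groups the closest genes were others, at r of 0.92 to 0.99. Penk was nearest to Syt6, Postn and Scamp1, Pdyn to Actl6b, Phactr1 and Akap5, and Tac1 to A830092H15Rik, Asic4 and Gprin3. Npy was nearest to Kctd16, Letmd1 and B4galnt1, Sst to Lin7b and Gas7, and Cort to Efcab6, 1110002E22Rik and 1700016K19Rik. Cartpt was nearest to Shisa3, Fam129a and Cdk2ap1, and Nts to Slc25a1, Gpr101 and Ctsa. With 12 points that fall into 6 regions, such values describe the regional order and little else.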

How the data were processed

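The authors deposited 1 table of expected counts (estimates that can be fractional) for the 96 and 90 libraries. The submitters' processing notes name Salmon and mm10 with no version; the sources used here do not say whether strand was used. The deposited expected counts were rounded and fitted with edgeR 4.0.16 in R 4.3.3: TMM scaling, filterByExpr, glmQLFit and glmQLFTest on the 3 genotypes of each region and age, with Benjamini-Hochberg adjustment over all genes and calls under 0.05. One fit per region over both ages and 1 per age over all regions tested the differences. The SE is the log2 fold change over the square root of F. DESeq2 1.42.0 and limma 3.58.1 were alternatives.

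Members and lists were chosen with earlier results of these data known. Named are the 8 members, up to 4 called genes per list in striatum (KO against WT), the 3 genes most like each member by Pearson r of log2(CPM + 1), and Akap11; a few genes that the rule or a list includes are not reported here. The other genes named (Ucn, Pmch, Hcrt, Cck, Drd1, Gad1, Gad2, Oprk1 and Pcsk1 at 12 weeks) were chosen after their values were seen. Libraries were set apart by marker scores or Akap11, also after values were seen. Counts of 390 replicate pairs were compared by chi-square, whose ratio to its degrees of freedom was never under 7.97; each library counts as 1 replicate. Gene positions are from GENCODE M21 (GRCm38). On simulated data for KO against WT striatum at 12 weeks (15622 genes), 55 of 100 genes changed 1.35-fold and 74 of 100 changed 2-fold were recovered, with 6 false calls. Depth was 20794652 to 73344445 counts per library.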

Additional observations from a re-analysis of the deposited data

Results flagged for a closer look

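Of 288 groups of member, region, age and genotype, 32 held an outlying library. Its gap to the nearest other exceeded the limit of a 95% test for an outlying value. By chance that limit is passed in about 1 in 20 groups only where values are normally distributed. It was applied to CPM without a log, so the count of 32 is not set against that share. Of these, 10 were in thalamus, 10 in substantia nigra, 5 in striatum, 5 in somatosensory cortex and 2 in hippocampus, and none in prefrontal cortex. All but 1 were high libraries. Values are in CPM.

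In striatum the outlying libraries were Cort in WT 92 at 4 weeks (1.72, others at most 0.181), Nts in HET 931 at 4 weeks (7.55, others at most 3.22), and WT 3 at 12 weeks for both Cartpt (4.12, others at most 0.780) and Nts (6.85, others at most 2.46). Sst in HET 5 at 12 weeks was the low one, at 162 where the others held 175 to 176.

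In thalamus WT 913 at 4 weeks stood out for Pdyn (46.1), Cartpt (22.8) and Cort (0.700). Pdyn was also outlying in KO 163 (40.3) and HET 93 (15.4) at 4 weeks and in WT 5 at 12 weeks (13.7). Sst was outlying in HET 1 (71) and KO 2 (12.2) at 12 weeks, Penk in HET 5 (1.49) and Cort in WT 3 (0.0664).

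In substantia nigra at 4 weeks Cartpt was outlying in HET 62 (41.5), Nts in KO 91 (16.6), Npy in WT 23 (6.06) and KO 91 (2.31), and Cort in WT 23 (0.671), KO 163 (0.459) and HET 941 (0.222). At 12 weeks Pdyn was outlying in KO 4 (7.94) and WT 5 (2.42), and Sst in WT 1 (31.1). Nts in KO 91 was far from the other KO libraries, which held at most 2.75.

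In somatosensory cortex HET 5 at 12 weeks stood out for both Penk (119) and Tac1 (14.8). Tac1 in WT 23 (6.87) and Sst in KO 163 (184) were outlying at 4 weeks, and Nts in KO 2 (0.233) at 12 weeks. In hippocampus Npy was outlying in HET 941 at 4 weeks (66.8) and Penk in KO 4 at 12 weeks (109).

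Set against the average effect of the remaining 5 regions, the KO effect in striatum at 4 weeks was higher, by a test of that difference, for Sst (1.58 on the log2 scale), Cort (2.85) and Cartpt (3.55). None of the 3 was called without the libraries that stand apart (1.66, 0.56 and 1.74), and with the library number as a block only Cort was. The thalamic Sst difference of -4.75 is part of the average that Sst was set against.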

How the results depend on the processing

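Counts of members called were compared across settings, of which 577 stayed within 1.5 times the main count and 38 did not. A count of 0 that stayed at 0 is among the 577. This was so in all 123 fits of the KO effect between ages with 1 library left out. Where a count was summed over regions, leaving out 1 library could change only 1 region. The 577 therefore say little about the striatal calls. In KO against WT striatum at 4 weeks the count of 2 became 1 with the cortical score as covariate and 0 to 5 on leaving out 1 library (0 without WT 42, 5 without WT 92); at 12 weeks the range was 3 to 4 around 3. For KO against HET the count of 3 at 4 weeks became 5 by DESeq2, 1 with the cortical covariate and 1 to 5 on leaving out 1 library; the count of 2 at 12 weeks became 4 by DESeq2, 1 with the covariate, 4 with only those genotypes in the fit and 0 to 1 on leaving out 1 library. The 3 members differing between striatum and other regions at 4 weeks became 1 with limma-voom and the library number as block. They became 0 without the libraries that stand apart and 0 to 3 on leaving out 1 library. Outside striatum at 4 weeks DESeq2 called 2 in KO and 2 in HET (Npy -1.59, adjusted p = 0.0450, and Sst -1.71, 0.0499, in substantia nigra), with 0 to 1 on leaving out 1 library. The WT age count ranged from 12 to 14 on leaving out 1 library. Without the libraries that stand apart the thalamic age calls of Penk, Tac1 and Nts were lost.

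Signs reversed without the libraries that stand apart for Penk in KO striatum at 4 weeks (0.34) and for thalamic Cartpt (1.67) and Nts (0.31) in WT with age, and for thalamic Cartpt on leaving out WT 913 (0.157, in a range of -3.17 to 0.157 over single libraries left out). Leaving these libraries out of the between-region and between-age fits was chosen after seeing the data. The cause of these shifts was not tested. At 12 weeks the replicate numbers are shared between genotypes. In striatum 7 of 15 same-numbered pairs had a correlation over 0.1, in a range of -0.539 to 0.430. Their median was 0.0936, against -0.0409 for pairs of other numbers. Whether the numbers mark paired libraries is not shown. With the replicate block, 4 members were called in KO against WT striatum, Npy joining at 0.22 (adjusted p = 0.0135), and 3 in KO against HET, with 0 outside striatum. Low counts limit Cort, Cartpt and Nts.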
